A study of Mus musculus with 16 samples.

Results

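The 47 proteasome subunit genes of the mouse pancreas were followed here. They were chosen by name, as the rows of the deposited UMI count table whose gene symbol is Psma, Psmb, Psmc, Psmd, Psme, Psmf or Psmg followed by a number. They are 47 of 24019 genes in the table, and the choice was made with earlier results of these data known. The study addressed how the pancreas responds to acute pancreatitis when the protease ADAM17 is reduced. Pancreas tissue came from littermate C57BL/6J mice aged 6 to 8 weeks, either wild type (WT) or homozygous for Adam17ex, a hypomorphic allele (one of reduced function) present in all cells of the animal and not in a chosen cell type. Each mouse had 7 hourly intraperitoneal injections of cerulein at 50 µg/kg, a cholecystokinin analogue that overstimulates acinar cells, or of PBS, and was killed 1 h after the last. The 16 libraries formed 4 groups of 4, which were WT with PBS, WT with cerulein, Adam17ex/ex with PBS and Adam17ex/ex with cerulein, and Adam17ex is written below for Adam17ex/ex. The labels number the replicates but do not state that each library is a separate animal, so the p-values measure the spread between these libraries.

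The proteasome is the barrel-shaped protease that destroys ubiquitin-tagged proteins. Its 20S core has outer rings of alpha subunits, which gate the entry, and inner rings of beta subunits, of which the products of Psmb5, Psmb6 and Psmb7 cut peptide bonds. The 19S cap binds and unfolds the substrate: the base holds a ring of ATPases and large scaffold subunits, and the lid removes ubiquitin. In cells exposed to interferon and in lymphoid cells, Psmb8, Psmb9 and Psmb10 replace the catalytic subunits Psmb5, Psmb6 and Psmb7, which gives the immunoproteasome. Other activators can take the place of the cap, and assembly chaperones (Psmg genes for the core, Psmd5, Psmd9 and Psmd10 for the cap base) help to build the particle. Pancreatic acinar cells make more secretory protein than almost any other cell, and misfolded protein from their endoplasmic reticulum is destroyed by the proteasome.

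The libraries held 455547 to 1476159 UMIs each, and 3 of the Adam17ex PBS libraries were the shallowest, so that 1 UMI stood for 0.677 to 2.20 CPM (counts per 1000000 counts, scaled here by TMM factors). Adam17 itself had 5.25 to 14.1 CPM in WT with PBS, 11.1 to 19.3 in WT with cerulein, 2.58 to 6.03 in Adam17ex with PBS and 2.401 to 4.09 in Adam17ex with cerulein. Its groups did not overlap between genotypes under cerulein and did overlap under PBS. Acinar genes, summed over 13 markers, were a large part of the tissue's RNA in each group: 277300 ± 35140 CPM (SD, n = 4) in WT with PBS, 176600 ± 32950 in WT with cerulein, 277200 ± 67540 in Adam17ex with PBS and 247900 ± 24580 in Adam17ex with cerulein. The sum over 7 duct markers was 251 ± 18.1 CPM, 1199 ± 130 CPM, 260.4 ± 22.9 CPM and 409 ± 23.9 CPM in the same order of groups. In such bulk tissue, fewer cells of a type and less RNA per cell cannot be told apart.

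The sequences before 4 of the genes are shown because these genes frame the results: Psmb10 fell furthest in WT, Psmd8 and Psmd11 moved up together in both genotypes, and Psmb5, which Psmb8 can replace, carries one of the motifs searched. They are RefSeq promoter sequences of the GRCm38.p6 build, restricted to the bases before the gene as the count table's annotation draws it, and written 5′ to 3′ on the gene's strand. The 198 bases of Psmb10 lie at chr8:105938445-105938642 on the minus strand, the 222 of Psmd8 at chr7:29180702-29180923 on the minus strand, the 250 of Psmd11 at chr11:80428365-80428614 on the plus strand and the 223 of Psmb5 at chr14:54618023-54618245 on the minus strand. Capitals mark a match to TGACNNNGC, the antioxidant response element that NRF1 and NRF2 bind.
Psmb10: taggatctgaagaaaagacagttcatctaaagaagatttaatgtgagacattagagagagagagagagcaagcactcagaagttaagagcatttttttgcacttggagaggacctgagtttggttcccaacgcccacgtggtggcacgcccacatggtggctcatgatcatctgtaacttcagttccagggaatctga
Psmd8: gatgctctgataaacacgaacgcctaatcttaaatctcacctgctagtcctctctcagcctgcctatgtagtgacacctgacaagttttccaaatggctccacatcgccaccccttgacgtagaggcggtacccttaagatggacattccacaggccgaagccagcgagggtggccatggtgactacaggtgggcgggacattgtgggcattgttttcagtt
Psmd11: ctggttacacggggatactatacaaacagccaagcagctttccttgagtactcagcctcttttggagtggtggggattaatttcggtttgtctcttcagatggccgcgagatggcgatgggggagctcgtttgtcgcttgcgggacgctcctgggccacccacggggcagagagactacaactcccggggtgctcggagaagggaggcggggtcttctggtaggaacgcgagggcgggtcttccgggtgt
Psmb5: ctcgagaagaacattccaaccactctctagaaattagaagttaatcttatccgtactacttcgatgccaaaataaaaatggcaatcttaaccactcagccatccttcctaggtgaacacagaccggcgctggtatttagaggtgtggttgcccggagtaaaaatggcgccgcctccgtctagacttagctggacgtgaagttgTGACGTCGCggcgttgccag
A RefSeq promoter of 300 bases (250 before the start and 50 after it) was found for 39 of the 47 genes, 42 promoters in all. On both strands, TGACNNNGC was present in 14.3% of these 42 promoters and in 12.4% of all 32851 RefSeq promoters of that length. The genes with it were Psmb5, Psmb6, Psmc6, Psmd9, Psmd12 and Psme4. The interferon-stimulated response element, searched as GAAA, any 2 bases and GAAA, was present in 11.9% of the proteasome promoters and in 3.44% of all, in Psmb3, Psmd4, Psmd9, Psme1 and Psmg4. CCAAT was present in 31% against 37.4%, and in 5 of the 7 alpha ring genes with a promoter entry. The heat shock element, searched as GAA and TTC and GAA with any 2 bases in each gap, was present in 0 of the 42 promoters and in 0.603% of all. The matches of the catalytic gene Psmb6 (chr11:70525338-70525366, plus strand) and of the activator gene Psme1 (chr14:55578493-55578522, plus strand) are printed with their flanks, with the antioxidant motif in capitals for Psmb6 and the reverse complement of the interferon motif in capitals for Psme1.
Psmb6: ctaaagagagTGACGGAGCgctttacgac
Psme1: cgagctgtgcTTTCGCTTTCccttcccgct
These matches describe letters in the sequence and not bound sites.

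The count table samples the 3′ end of each transcript, so a level in CPM depends little on transcript length, and levels of different genes are compared on that footing. Together the 47 genes made up 0.269 ± 0.0175% of all UMIs in WT with PBS (SD, n = 4), 0.290 ± 0.0172% in WT with cerulein, 0.233 ± 0.0413% in Adam17ex with PBS and 0.258 ± 0.0215% in Adam17ex with cerulein. These ranges are close, while the composition of the family differed between groups. The highest level in both PBS groups was that of Psmb10, at 522 ± 32.01 CPM in WT and 401 ± 80.6 CPM in Adam17ex, above the alpha ring gene Psma7 at 197 ± 28.01 and 206 ± 38.4 CPM. At the other end, Psma8, a testis form of an alpha subunit, had 5 UMIs in all 16 libraries, and Psmb9 had 92. Those 2 genes did not pass the filter on low counts, and the other 45 were tested.

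In WT, cerulein raised 8 and lowered 3 of the 45 genes tested, where 19.8% of all 8236 genes tested were called higher and 21.3% lower (edgeR quasi-likelihood test, Benjamini-Hochberg adjusted p under 0.05). In Adam17ex, 6 of the 45 were called higher against 14.1% of all genes, and 4 lower against 16.2%. The share called higher, 17.8% in WT, was thus near the background, and the median log2 fold change of the 45 was 0.06 in WT and 0.12 in Adam17ex, against -0.04 and -0.03 over all genes. Changes were mostly small: 41 of the 45 fold changes in WT and 39 in Adam17ex were under 2-fold. The 2 responses come from separate libraries, and a test of the difference between them called 1 of the 45 genes higher in Adam17ex, Psmb10, against 3.75% of all genes, and 0 lower against 2.27% (3 at an unadjusted p under 0.05 in edgeR, 0 with DESeq2). The genes are described in turn by their place in the particle.

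**Figure D1:**
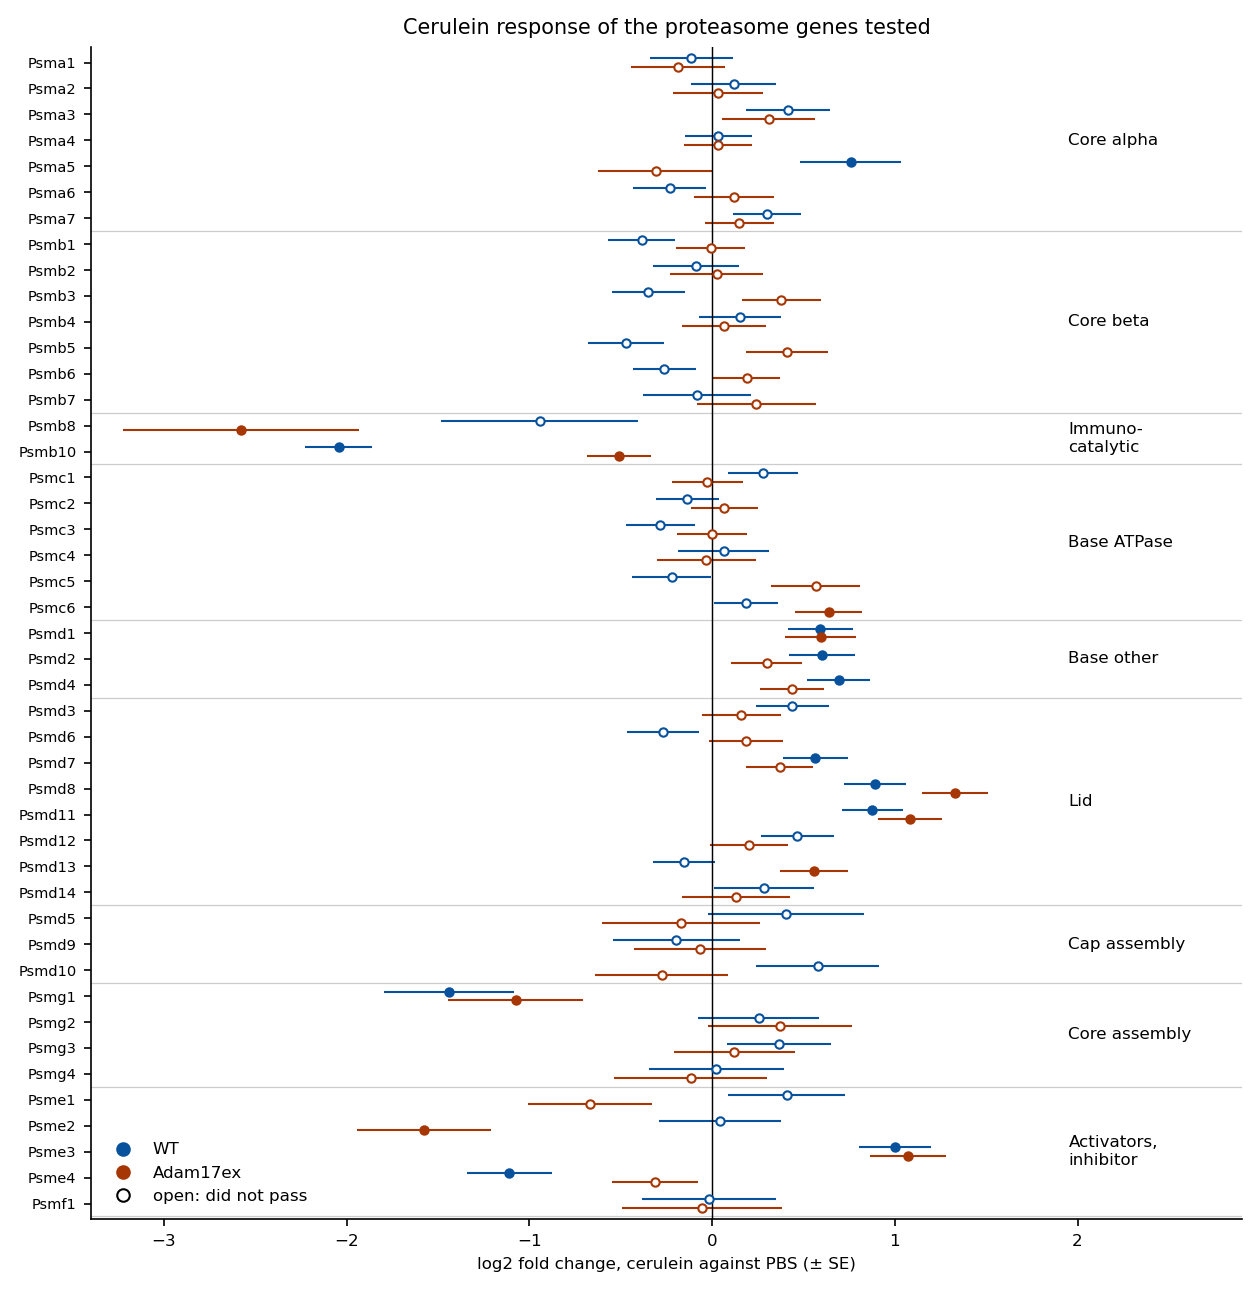
Log2 fold change of cerulein against PBS (x axis, ± SE) for the 45 genes tested, grouped by their place in the proteasome, in WT (blue) and Adam17ex (brown); filled points passed an adjusted p of 0.05 and open points did not. Apart from Psma5 at 0.76 in WT, the core genes lie between -0.47 and 0.41, Psmd8, Psmd11 and Psme3 lie to the right in both genotypes, and Psmb10 lies further to the left in WT, at -2.04 against -0.51 in Adam17ex.

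Of the 14 core genes tested, 1 rose in WT (7.14%) and 0 changed in Adam17ex, with medians of -0.09 and 0.09 on the log2 scale. Over all genes, 19.8% were called higher and 21.3% lower in WT, and 14.1% and 16.2% in Adam17ex. In Adam17ex, 0 of the 14 had an unadjusted p under 0.05 in edgeR and DESeq2 called 0. The gene that rose was Psma5, an alpha ring subunit. It had 19.98, 30.5, 19.9 and 9.803 CPM in the 4 WT libraries with PBS and 39.8, 38.8, 31.5 and 33.1 with cerulein, and 10.4, 18.1, 30.1 and 31.3 CPM in Adam17ex with PBS and 20.04, 18.7, 22.8 and 17.7 with cerulein. All WT libraries with cerulein were above all WT libraries with PBS, whereas the Adam17ex groups overlapped. The log2 fold change was 0.76 ± 0.28 in WT (SE, edgeR adjusted p = 0.032) and -0.31 ± 0.31 in Adam17ex (edgeR adjusted p = 0.48), and the difference between the 2 responses did not pass (-1.07 ± 0.42, edgeR adjusted p = 0.13). The WT call is not firm: it was lost without WT PBS replicate 1 or 4, or without WT cerulein replicate 1 or 2, with edgeR adjusted p-values of 0.058, 0.091, 0.052 and 0.071.

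The other 6 alpha genes tested, Psma1, Psma2, Psma3, Psma4, Psma6 and Psma7, had log2 fold changes from -0.23 (Psma6) to 0.41 (Psma3) in WT and from -0.19 (Psma1) to 0.31 (Psma3) in Adam17ex, and none passed the test in edgeR. Psma3 encodes a subunit whose tail helps to close the entry gate, and Psma7 is the alpha gene with the highest level. Psma3 was at 27.3 to 28.3 CPM in WT with PBS and 31.5 to 40.5 CPM with cerulein, groups that did not overlap although the adjusted p was 0.16 in edgeR. Psma7 was at 170.4 to 222 and 208 to 336 CPM in the same groups.

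None of the 7 constitutive beta ring genes passed in either genotype with edgeR or DESeq2, and 2 in WT (Psmb1 and Psmb5) and 0 in Adam17ex had an unadjusted p under 0.05 in edgeR. Their median log2 fold change was -0.26 in WT, where 6 of the 7 were negative, and 0.19 in Adam17ex. Psmb5, the chymotrypsin-like catalytic subunit, showed the widest gap. It had 61.1, 67.8, 76.6 and 73.5 CPM in WT with PBS, 50.6, 58.7, 45.8 and 41.3 in WT with cerulein, 26.01, 38.7, 40.2 and 55.5 in Adam17ex with PBS and 40.1, 51.5, 56.4 and 72.2 in Adam17ex with cerulein. The WT groups did not overlap, with PBS the higher, and the Adam17ex groups did. Its log2 fold change was -0.47 ± 0.21 in WT (edgeR adjusted p = 0.073) and 0.41 ± 0.23 in Adam17ex (edgeR adjusted p = 0.18), and the difference of 0.88 ± 0.30 missed the threshold with an edgeR adjusted p of 0.087. The caspase-like subunit Psmb6 had -0.26 ± 0.17 and 0.19 ± 0.18, the trypsin-like subunit Psmb7 -0.08 ± 0.30 and 0.24 ± 0.33, and the structural subunits Psmb1 and Psmb3 -0.38 and -0.35 in WT against -0.01 and 0.38 in Adam17ex. Psmb7 was by far the lowest of the 3 catalytic genes, at 19.6 ± 8.23 CPM in WT with PBS beside 98.5 ± 15.6 for Psmb6 and 69.8 ± 6.83 for Psmb5.

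The 19S cap showed more called genes than the core. Of its 17 genes, all tested, 6 rose in WT (Psmd1, Psmd2, Psmd4, Psmd7, Psmd8 and Psmd11) and 5 rose in Adam17ex (Psmc6, Psmd1, Psmd8, Psmd11 and Psmd13), and 0 fell in either genotype. The medians were 0.28 and 0.30 on the log2 scale. The genes called higher are 35.3% of the cap genes in WT, against 7.14% of the 14 core genes and 19.8% of all genes. In Adam17ex they are 29.4%, against 0% of the core genes and 14.1% of all genes. Of all genes, 21.3% were called lower in WT and 16.2% in Adam17ex. No test compared the cap with the core. DESeq2 called 6 cap genes in WT and 3 in Adam17ex. Summed over the cap, the 4 WT libraries with PBS had 914, 1073, 1050 and 1189 CPM and those with cerulein 1181, 1340, 1319 and 1290, and the Adam17ex libraries had 1001, 1041, 910.2 and 1048 and 1281, 1387, 1204 and 1368. The treated group lay above the untreated one in Adam17ex, and in WT only the highest PBS library reached above the lowest cerulein library. Summed over the core, the means were 979.5 ± 113 and 955 ± 84.7 CPM in WT and 839.7 ± 101 and 927 ± 49.02 CPM in Adam17ex (SD, n = 4), with overlapping groups. The ratio of cap to core was 1.08 ± 0.0675 in WT with PBS and 1.35 ± 0.117 with cerulein, without overlap, and 1.203 ± 0.156 and 1.41 ± 0.0745 in Adam17ex, where it overlapped. The sums are dominated by the genes with the highest levels and are given as a description.

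**Figure D2:**
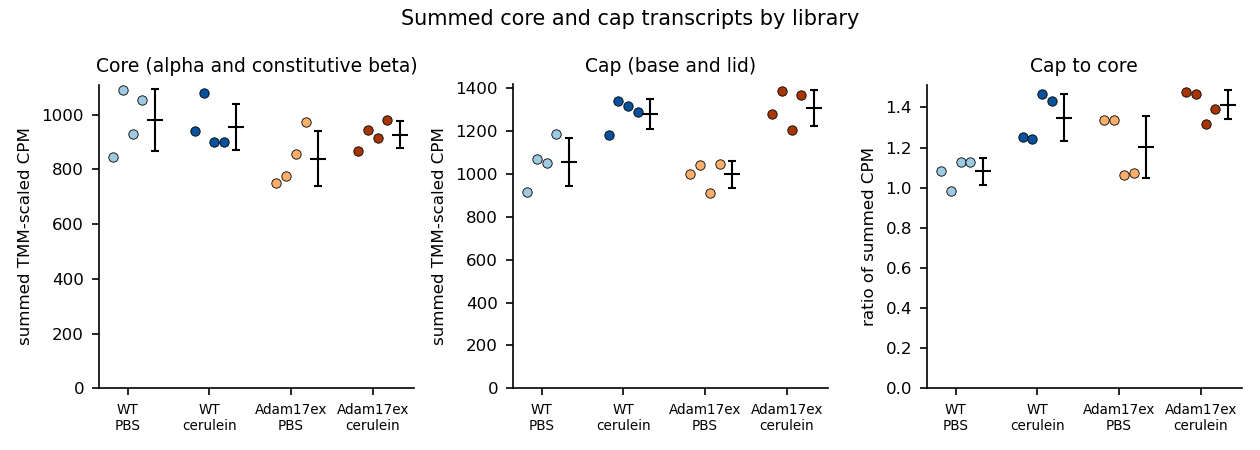
Summed CPM of the core genes and of the cap genes, and the ratio of cap to core (y axes), in each of the 16 libraries by group; points are libraries and bars are the mean ± SD (n = 4). The cap sum lies at 1282 ± 70.7 and 1310 ± 84.4 CPM under cerulein beside 1057 ± 113 and 1000 ± 63.4 under PBS, while the core sums overlap.

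Within the lid, Psmd8 and Psmd11 moved most. Psmd8 encodes a scaffold subunit of the lid. Its level was 51.7, 83.4, 69.3 and 75.97 CPM in WT with PBS and 115, 128, 115 and 150.4 with cerulein, and 65.02, 59.4, 50.2 and 64.7 CPM in Adam17ex with PBS and 149.8, 135, 145 and 170.3 with cerulein. Every cerulein library lay above every PBS library. The log2 fold change was 0.89 ± 0.17 in WT (1.85-fold, edgeR adjusted p = 0.00022) and 1.33 ± 0.18 in Adam17ex (2.51-fold, edgeR adjusted p = 9.3e-06). The difference between the responses, 0.44 with a 95% interval of -0.11 to 0.98, did not pass (edgeR adjusted p = 0.32).

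Psmd11, a lid subunit known for its part in raising proteasome assembly, was at 49.4, 53.6, 39.9 and 52.7 CPM in WT with PBS and 75.97, 99.7, 86.7 and 96.7 with cerulein, and at 46.8, 46.5, 46.2 and 48.5 and 86.5, 108, 104 and 101 in Adam17ex. Again no cerulein library reached down to a PBS library. It rose by 0.88 ± 0.17 in WT (1.84-fold, edgeR adjusted p = 0.00019) and by 1.08 ± 0.18 in Adam17ex (2.12-fold, edgeR adjusted p = 8.1e-05) on the log2 scale. The difference between the genotypes had an interval of -0.33 to 0.74, which includes 0. The duct marker sum given above was also higher with cerulein, and its part in the Psmd8 and Psmd11 results was not tested. Psmd7, a lid scaffold that pairs with the deubiquitinase Psmd14, rose in WT by 0.57 ± 0.18 (edgeR adjusted p = 0.013). In Adam17ex it had 0.37 ± 0.18 (edgeR adjusted p = 0.13), and Psmd14 itself had 0.28 ± 0.27 in WT.

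Psmd13, another lid scaffold, was called in Adam17ex only, at 0.56 ± 0.19 (edgeR adjusted p = 0.026), beside -0.15 ± 0.17 in WT. The difference was 0.71 ± 0.25 with an edgeR adjusted p of 0.092, and Psmd13 was named after its values were seen. Its levels were 39.01, 59.4, 38.2 and 48.5 CPM in Adam17ex with PBS and 62.2, 65.8, 60.03 and 81.1 with cerulein. The gene overlaps the processed pseudogene Gm15542 on the same strand, which has 957 UMIs of its own, so reads could have been split between them. Leaving out the third PBS or the fourth cerulein library of Adam17ex removed the call, with edgeR adjusted p-values of 0.052 and 0.059. Psmd3, Psmd6 and Psmd12, the rest of the lid, did not pass in either genotype, with 0.44, -0.27 and 0.47 in WT.

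In the base, the genes called in WT were scaffold and receptor subunits and not ATPases. In Adam17ex each of these classes held 1 called gene, and no test compared the classes. All 3 of the non-ATPase base genes rose in WT. Psmd1 and Psmd2, the large scaffolds to which ubiquitin shuttles bind, rose by 0.59 ± 0.18 (edgeR adjusted p = 0.0097) and 0.60 ± 0.18 (edgeR adjusted p = 0.010). Psmd4, a ubiquitin receptor, was at 79.9, 62.5, 75.6 and 74.8 CPM in WT with PBS and 95.9, 128, 131 and 111 with cerulein, groups that did not overlap. It rose by 0.69 ± 0.17 (edgeR adjusted p = 0.0024). Thinned to equal depth, Psmd2 had 0.40 in WT and was not called (edgeR adjusted p = 0.13). In Adam17ex, Psmd1 rose by 0.60 ± 0.19 (edgeR adjusted p = 0.024), while Psmd2 had 0.30 ± 0.20 and Psmd4 0.44 ± 0.17, with edgeR adjusted p-values of 0.26 and 0.063. The Psmd1 call in Adam17ex did not survive the removal of PBS replicate 4 or cerulein replicate 2 of that genotype, with edgeR adjusted p-values of 0.074 and 0.058.

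Of the 6 ATPases that thread the substrate into the core, 0 passed in WT with edgeR or DESeq2 (0 at an unadjusted p under 0.05), where their log2 fold changes ran from -0.28 (Psmc3) to 0.28 (Psmc1), and 1 in Adam17ex. That gene was Psmc6, at 39.01, 41.3, 40.2 and 43.4 CPM with PBS and 60.1, 67.5, 61.2 and 67.4 with cerulein. Its groups did not overlap, and it rose by 0.64 ± 0.18 (edgeR adjusted p = 0.011), beside 0.18 ± 0.18 in WT (edgeR adjusted p = 0.43). The difference was 0.46 ± 0.25 and did not pass (edgeR adjusted p = 0.30). The Psmc6 call was lost in females only (0.63), without the 3 shallow Adam17ex PBS libraries (0.59) and after thinning to equal depth (0.34), with edgeR adjusted p-values of 0.12, 0.20 and 0.26. Psmc5 had 0.57 ± 0.24 in Adam17ex, with an edgeR adjusted p of 0.083.

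Among the assembly factors, Psmg1 was the one that changed. With Psmg2 it forms a chaperone pair on which the alpha ring is put together. Its level was 15.3, 16.4, 19.9 and 13.5 CPM in WT with PBS and 8.14, 6.64, 5.01 and 3.31 with cerulein, and 10.4, 23.2, 14.1 and 17.2 CPM in Adam17ex with PBS and 7.38, 7.998, 3.602 and 10.2 with cerulein. The treated libraries lay below the untreated ones in both genotypes. Psmg1 fell by 1.44 ± 0.36 in WT (edgeR adjusted p = 0.0024) on the log2 scale and fell in Adam17ex, with -1.08 ± 0.37 (edgeR adjusted p = 0.029). Both calls rest on few UMIs, with 4 to 9 per library in WT with cerulein and 3 to 15 in Adam17ex with cerulein. The Adam17ex call did not hold when PBS replicate 2, 3 or 4 or cerulein replicate 1 or 3 of that genotype was left out, with edgeR adjusted p-values from 0.063 to 0.094. Its partner Psmg2 had 0.26 ± 0.33 in WT, and Psmg3 and Psmg4, a second pair for the same step, had 0.37 and 0.02. The 3 cap chaperones Psmd5, Psmd9 and Psmd10 had 0.40, -0.20 and 0.58 in WT, with SE of 0.34 to 0.43, and none passed in edgeR or DESeq2 in either genotype, also at an unadjusted p under 0.05.

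The alternative activators went separate ways. Psme3 encodes the nuclear activator PA28 gamma, which opens the core without ubiquitin or ATP. It was at 18.8, 23.8, 18.9 and 19.6 CPM in WT with PBS and 40.7, 36.5, 42.98 and 44.6 with cerulein, and at 20.8, 23.2, 30.1 and 25.2 CPM in Adam17ex with PBS and 43.2, 50.6, 57.6 and 59.9 with cerulein. The groups were well apart in both genotypes. Psme3 rose by 1.00 ± 0.20 in WT (2.001-fold, edgeR adjusted p = 0.00030) and 1.07 ± 0.21 in Adam17ex (2.102-fold, edgeR adjusted p = 0.00044). The difference of 0.07 had a 95% interval of -0.57 to 0.71.

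Psme4 encodes PA200, a large single-chain activator known from acetylated histone breakdown. Its level was 108, 60.3, 87.1 and 84.5 CPM in WT with PBS, 28.9, 52.05, 38.7 and 37.2 in WT with cerulein, 88.4, 77.5, 46.2 and 75.8 in Adam17ex with PBS and 48.5, 58.6, 75.6 and 49.04 in Adam17ex with cerulein. The WT groups did not overlap and the Adam17ex groups did. Psme4 fell in WT, with -1.11 ± 0.23 on the log2 scale (2.16-fold, edgeR adjusted p = 0.00051), beside -0.31 ± 0.24 in Adam17ex (edgeR adjusted p = 0.33). The difference between the genotypes, 0.79 ± 0.33, did not pass (edgeR adjusted p = 0.16). The inhibitor Psmf1 had -0.02 ± 0.37 and -0.05 ± 0.44, both near 0 with wide errors.

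**Figure D3:**
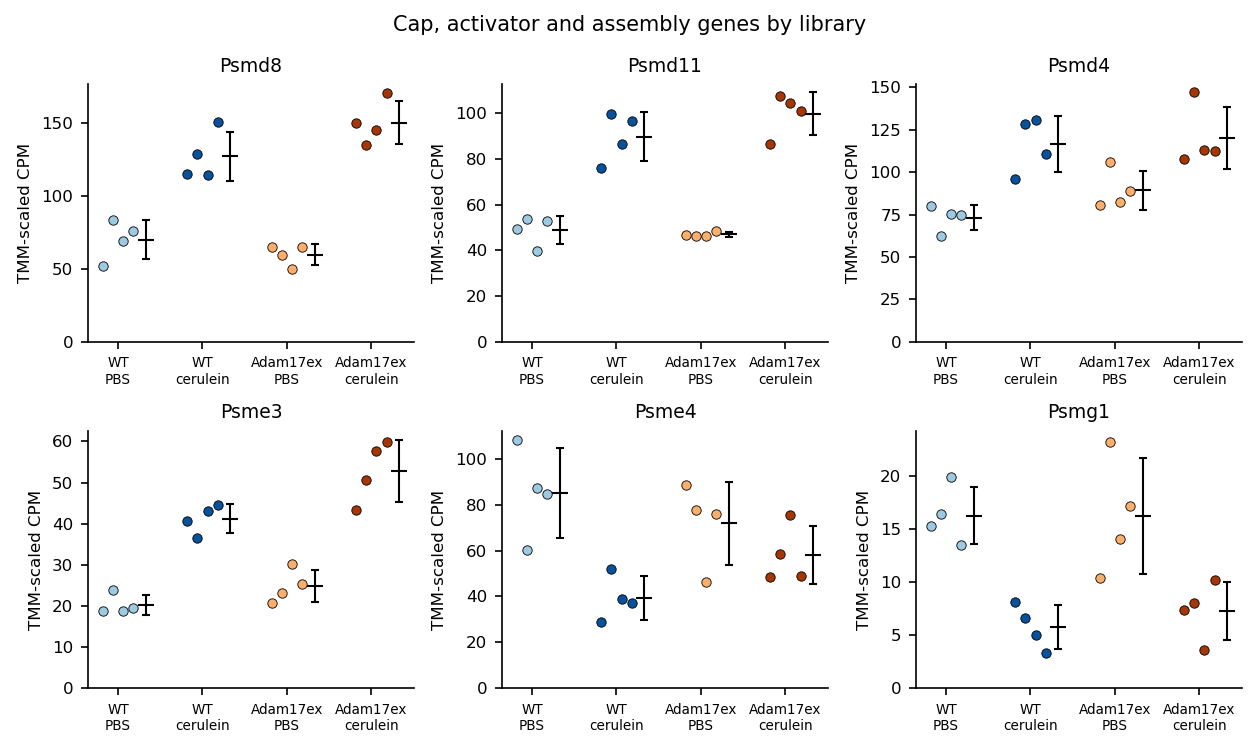
TMM-scaled CPM (y axes) of 3 cap genes, 2 activators and 1 core chaperone in each library by group; points are libraries and bars are the mean ± SD (n = 4). Psmd8, Psmd11, Psmd4 and Psme3 lie higher under cerulein in both genotypes, Psme4 lies lower in WT at 39.2 ± 9.57 against 85.03 ± 19.6 CPM, and Psmg1 lies lower in both.

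The immunoproteasome genes are described in turn, and no test compared their responses with each other. Psmb10, the trypsin-like immunoproteasome subunit, lies on chromosome 8 from 105935735 to 105938444 on the minus strand (GRCm38). Its level was 531, 502, 491 and 562 CPM in the 4 WT libraries with PBS and 93.2, 144, 96.7 and 153 in those with cerulein. In Adam17ex it was 447, 467, 287 and 401 CPM with PBS and 278, 276, 253 and 313 with cerulein. The 4 WT cerulein libraries lay below all 12 others, and the Adam17ex cerulein libraries lay between the WT groups and overlapped the lowest Adam17ex PBS library. Psmb10 fell by 2.04 ± 0.18 on the log2 scale in WT (4.12-fold, edgeR adjusted p = 1.1e-08) and fell less in Adam17ex, with -0.51 ± 0.18 (1.42-fold, edgeR adjusted p = 0.031).

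The difference between these responses was 1.53 ± 0.25 (95% interval 0.98 to 2.09, edgeR adjusted p = 0.00072), the 1 proteasome gene for which it passed. The Adam17ex call was lost without any of 10 single libraries (WT PBS replicates 2, 3 and 4, Adam17ex PBS replicates 1, 2 and 4 and each of the 4 Adam17ex cerulein replicates), with edgeR adjusted p-values from 0.060 to 0.21. The WT fall and the difference between genotypes stayed called without each library in turn. As a share of the UMIs of all 47 genes, Psmb10 was 18.6 ± 1.497% in WT with PBS, 4.65 ± 1.05% in WT with cerulein, 15.8 ± 3.28% in Adam17ex with PBS and 10.2 ± 0.569% in Adam17ex with cerulein (SD, n = 4). It was still the gene with the highest level in Adam17ex with cerulein and was in the 4th place in WT with cerulein, below Psma7, Psmd7 and Psmd8.

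The next gene downstream of Psmb10 on the same strand, 1872 bases away, is Ctrl (chromosome 8, 105932003 to 105933862), which encodes a chymotrypsin-like enzyme of the acinar cell. Ctrl fell in WT, at -0.74 ± 0.21 on the log2 scale (edgeR adjusted p = 0.0076) and had -0.11 ± 0.21 in Adam17ex (edgeR adjusted p = 0.73), and its difference between the genotypes did not pass (0.64 ± 0.30, edgeR adjusted p = 0.21). Psmb10 had 3.13 ± 0.430 UMIs per 100 Ctrl UMIs in WT with PBS, 1.25 ± 0.259 in WT with cerulein, 2.67 ± 0.203 in Adam17ex with PBS and 2.03 ± 0.199 in Adam17ex with cerulein. The ratio in WT with cerulein was below that in each other group, without overlap. An antisense gene, Gm16156, spans Psmb10 and had 72 UMIs in the 16 libraries. The acinar marker sum given above was also lower in WT with cerulein, and its part in the Psmb10 result was not tested.

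Among the UMIs of the 6 replaceable catalytic genes, the 3 immunoproteasome genes made up 74.6 ± 3.33% in WT with PBS, 47.5 ± 8.26% in WT with cerulein, 77.9 ± 3.16% in Adam17ex with PBS and 65.04 ± 1.698% in Adam17ex with cerulein. This share is almost wholly Psmb10. Within the Psmb10 and Psmb7 pair, Psmb10 was 96.4 ± 1.39%, 86.7 ± 3.19%, 95.8 ± 1.44% and 93.1 ± 2.32% of the UMIs in the same order. For the other pairs the balance was reversed: Psmb8 and Psmb9 were 14.1 ± 9.13%, 11.1 ± 6.29%, 24.7 ± 17.5% and 4.48 ± 1.82% of the UMIs they share with Psmb5 and Psmb6. RNA shares are not shares of assembled particles, which were not measured.

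**Figure D4:**
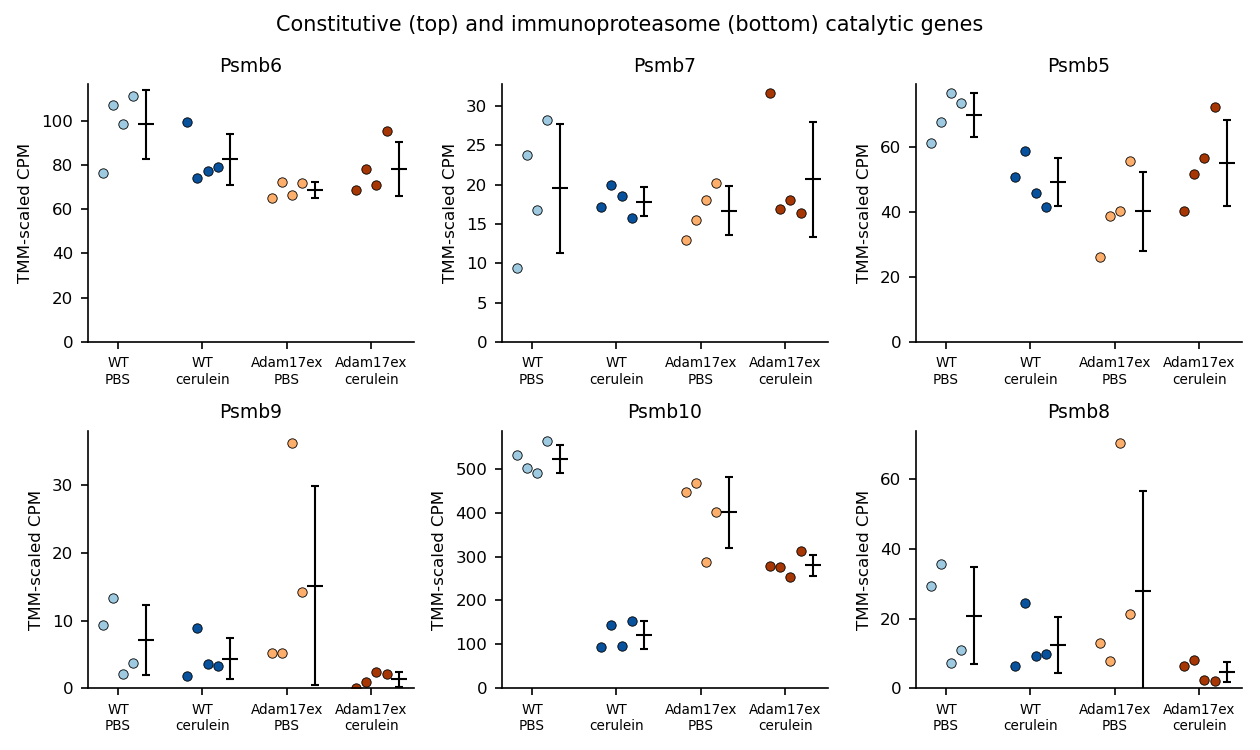
TMM-scaled CPM (y axes, each with its own scale) of the 3 constitutive catalytic genes (top) and the immunoproteasome gene that can replace each (bottom) in the 16 libraries; points are libraries and bars are the mean ± SD (n = 4), with bars that would pass below 0 ending at the axis. Psmb10 reaches over 490 CPM in each WT PBS library and stays at 153 or below in WT with cerulein, and 1 Adam17ex PBS library stands high for Psmb8 and Psmb9.

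Psmb8, the chymotrypsin-like immunoproteasome subunit, was at 29.4, 35.7, 7.35 and 11.03 CPM in WT with PBS and 6.33, 24.4, 9.31 and 9.92 with cerulein, and at 13, 7.75, 70.3 and 21.2 CPM in Adam17ex with PBS and 6.33, 7.998, 2.401 and 2.04 with cerulein. The groups overlapped in both genotypes, and Adam17ex PBS replicate 3 was the highest of the 16 libraries. The log2 fold change was -0.94 ± 0.54 in WT (edgeR adjusted p = 0.17) and -2.58 ± 0.65 in Adam17ex (edgeR adjusted p = 0.0044), and the difference did not pass (edgeR adjusted p = 0.28). Without Adam17ex PBS replicate 3 the Adam17ex value was -1.60 and lost its call (edgeR adjusted p = 0.084). Psmb9, which can replace the caspase-like Psmb6, was too low to test. It had 5.202, 5.16, 36.2 and 14.1 CPM in Adam17ex with PBS and 0, 0.889, 2.401 and 2.04 with cerulein. In WT it had 2.099 to 13.4 CPM with PBS and 1.81 to 8.86 with cerulein.

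Psme1 and Psme2 encode the interferon-inducible PA28 activator that works with the immunoproteasome. Psme2 was at 15.6, 25.8, 42.2 and 34.3 CPM in Adam17ex with PBS and 13.7, 12.4, 8.404 and 6.81 with cerulein, and at 15.3, 30.5, 9.45 and 17.1 and 17.2, 21.04, 15.04 and 23.97 CPM in WT. The Adam17ex groups did not overlap, and the WT groups did. Psme2 fell in Adam17ex, with -1.58 ± 0.37 (edgeR adjusted p = 0.0025) and had 0.04 ± 0.33 in WT (edgeR adjusted p = 0.93), and the difference of -1.62 ± 0.49 missed the threshold narrowly (edgeR adjusted p = 0.052). The closely related gene Psme2b, counted in its own row, could share reads with Psme2, and it also fell in Adam17ex, with -1.13 ± 0.33 (edgeR adjusted p = 0.012). Without Adam17ex PBS replicate 3 the Psme2b value was -0.63 and was not called (edgeR adjusted p = 0.17). Psme1 did not pass, with 0.41 ± 0.32 in WT and -0.67 ± 0.34 in Adam17ex, and its Adam17ex PBS replicate 3 had 66.3 CPM beside 20.8 to 26.3 in the other libraries of the group.

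Leukocyte markers also differed between these libraries. Summed over 20 markers, of which 12 passed the filter, they were at 849.8, 1223, 193 and 273 CPM in WT with PBS, 170, 391, 235 and 332 in WT with cerulein, 273, 392, 2829 and 689 in Adam17ex with PBS and 225, 199.9, 365 and 216 in Adam17ex with cerulein. The summed level of Psmb8 and Psmb9 was 38.8, 49.1, 9.45 and 14.7, 8.14, 33.2, 12.9 and 13.2, 18.2, 12.9, 106 and 35.4 and 6.33, 8.89, 4.802 and 4.09 CPM in the same libraries. The library with the highest leukocyte marker sum, Adam17ex PBS replicate 3, also had the most Psmb8 and Psmb9. Of the 12 markers tested, 10 fell with cerulein in Adam17ex, 83.3% against 16.2% of all genes. In WT 3 fell (Cd74, H2-Aa and Ighm), 25% against 21.3% of all genes, which is near the background. All 12 had negative fold changes in WT, with a median of -1.02 on the log2 scale, where Psme2 had 0.04 and Psme1 0.41. In the cerulein groups the lymphocyte markers Cd3g, Cd79a, Cd79b and Ms4a1 were at 0 UMIs in WT, and Cd3e and Cd79a in Adam17ex. These markers were near the floor with PBS too. Cd3e, Cd3g, Cd79a, Cd79b and Ms4a1 each had at most 10 UMIs in Adam17ex with PBS, and so did Cd3e in WT with PBS. Psmb10 was at 287 CPM in Adam17ex PBS replicate 3, the lowest of its group. The part of leukocyte content in the results for the immunoproteasome genes and Psme2 was not tested.

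**Figure D5:**
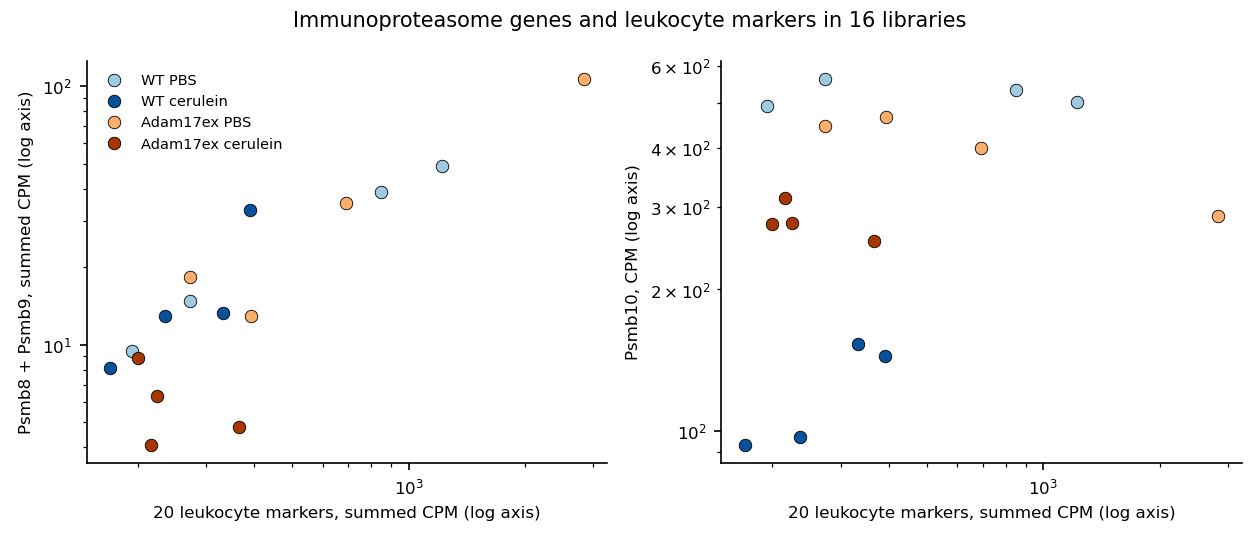
Summed CPM of 20 leukocyte markers (x axis, log scale) against the summed CPM of Psmb8 and Psmb9 (left) and the CPM of Psmb10 (right; y axes, log scale) in the 16 libraries, coloured by group. Adam17ex PBS replicate 3 is the highest on the left, at 106 CPM, and on the right the 4 WT cerulein libraries are the lowest.

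Between the genotypes without cerulein, 0 of the 45 genes were called, against 0.631% of all genes called higher in Adam17ex and 0.729% lower (edgeR, adjusted p under 0.05). DESeq2 also called 0, and 5 (Psmb3, Psmb5, Psmb6, Psmc5 and Psmd13), all lower in Adam17ex, had an unadjusted p under 0.05 in edgeR. All 45 differences were under 2-fold, with a median SE of 0.24 on the log2 scale. In 4 genes each Adam17ex library was below each WT library and in 1, Psmd4, above. The share of all genes separated in this way was not counted, so these counts have no background beside them. Of the catalytic genes, Psmb5 (-0.66 ± 0.24), Psmb6 (-0.52 ± 0.19) and Psmb10 (-0.25 ± 0.19) were among the 4, the other being Psmd13, with edgeR adjusted p-values of 0.15, 0.17 and 0.54.

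Under cerulein, 1 of the 45 genes was called higher in Adam17ex than in WT, against 5.85% of all genes, and 1 lower, against 3.85%. Psmb10 was higher by 1.28 ± 0.18 (2.43-fold, edgeR adjusted p = 5.8e-05), with the 4 libraries of each group apart. Psma5 was lower, with a log2 difference of -0.87 ± 0.27 (edgeR adjusted p = 0.047), at 17.7 to 22.8 against 31.5 to 39.8 CPM. The Psma5 call was lost without any of 12 single libraries (WT PBS replicates 1 and 3, Adam17ex PBS replicates 2 and 3, and each cerulein library of both genotypes), with edgeR adjusted p-values from 0.051 to 0.21. No cap gene passed in edgeR or DESeq2, 1 (Psmc6) had an unadjusted p under 0.05 in edgeR, and the cap median was 0.09.

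Genes that serve the proteasome but lie outside the name rule were read from lists of known function, and of these Ecpas, Nfe2l1, Vcp and H2-D1 were named after their values were seen. Of 9 further parts and partners, 2 rose in WT, where 19.8% of all genes did, and 0 fell: Adrm1, the ubiquitin receptor at the tip of the cap, by 0.94 ± 0.26 (edgeR adjusted p = 0.0059), and Usp14, a deubiquitinase that docks on the base, by 0.73 ± 0.23 (edgeR adjusted p = 0.015). The Usp14 call was lost without WT cerulein replicate 2 (0.63, edgeR adjusted p = 0.055) and after thinning to equal depth (0.24, edgeR adjusted p = 0.60). In Adam17ex 0 of the 9 rose and 2 fell, Ecpas (a call lost without Adam17ex PBS replicate 2, edgeR adjusted p = 0.055) and Psme2b, where 16.2% of all genes fell. The core maturation factor Pomp had 0.27 ± 0.19. A list for NRF1, the factor that raises proteasome genes when the proteasome is overloaded, had 9 genes tested. Of these, 4 rose in WT and 3 fell, against 19.8% and 21.3% of all genes. The 4 include Nfe2l2, which encodes the separate factor NRF2. Nfe2l1, which encodes NRF1, rose by 0.52 ± 0.20, its protease Ddi2 by 0.62 ± 0.18 and its partner Mafg by 1.08 ± 0.29, with edgeR adjusted p-values of 0.039, 0.010 and 0.0046. The genes that fell act earlier, in pulling protein out of the endoplasmic reticulum: Sel1l with -3.09 ± 0.27, Syvn1 with -1.38 ± 0.31 and Vcp with -0.60 ± 0.18, with edgeR adjusted p-values of 6.3e-09, 0.0010 and 0.011. The Nfe2l1 call was lost without WT PBS replicate 1, 2 or 3 or WT cerulein replicate 2 or 3, with edgeR adjusted p-values from 0.063 to 0.13, and the Vcp call without WT PBS replicate 1 or 4, with edgeR adjusted p-values of 0.051 and 0.066. In Adam17ex, Mafg rose by 0.93 ± 0.30 (edgeR adjusted p = 0.020) and Sel1l fell by 1.78 ± 0.25 (edgeR adjusted p = 1.7e-05). The Mafg call in Adam17ex was lost without PBS replicate 3 or 4 or cerulein replicate 3 of that genotype, with edgeR adjusted p-values from 0.051 to 0.090.

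Of 16 ubiquitin and delivery genes tested, 4 rose and 1 fell in WT, 25% and 6.25% of the list against 19.8% and 21.3% of all genes. Sqstm1, the p62 receptor that carries ubiquitinated protein to autophagy, rose by 2.56 ± 0.19 (edgeR adjusted p = 6.7e-10), and Zfand2a, a proteasome-associated stress protein, by 2.53 ± 0.40 (edgeR adjusted p = 2.8e-05). Ubb, which encodes ubiquitin itself, was the gene that fell, with -1.19 ± 0.24 (edgeR adjusted p = 0.00045). In Adam17ex 3 of the 16 rose (18.8%, against 14.1% of all genes) and 1 fell, with Sqstm1 at 1.31 ± 0.19 (edgeR adjusted p = 2.2e-05), the 1 of these 4 calls that held without each library in turn.

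Of 5 interferon and antigen presentation genes tested (Irf1, B2m, H2-D1, H2-K1 and Tapbp), 1 rose and 1 fell in WT. Each is 20% of the list, near the 19.8% of all genes called higher and the 21.3% called lower. All 5 were called lower in Adam17ex, where 16.2% of all genes were. The Adam17ex calls depend in part on PBS replicate 3, the library with the highest leukocyte marker sum. Without it Tapbp was the 1 gene of the 5 still called, at -1.27 (edgeR adjusted p = 0.0014), and Irf1 had -1.29, B2m -0.33, H2-K1 -0.29 and H2-D1 -0.24, with edgeR adjusted p-values of 0.10, 0.45, 0.38 and 0.49. The H2-K1 and H2-D1 calls were also lost without Adam17ex cerulein replicate 2, 3 or 4, with edgeR adjusted p-values from 0.059 to 0.11. Irf1, which drives the immunoproteasome genes after interferon, rose by 1.64 ± 0.45 in WT (edgeR adjusted p = 0.0056), and by 2.58 without WT PBS replicate 2. In Adam17ex it had -1.54 ± 0.50 (edgeR adjusted p = 0.024), a call also lost without PBS replicate 4 or cerulein replicate 2 or 4 of that genotype, with edgeR adjusted p-values from 0.068 to 0.12. The difference between the responses was -3.17 ± 0.68 (edgeR adjusted p = 0.0069), and it was called without each library in turn. In females only it was -2.97 and was not called (edgeR adjusted p = 0.15). B2m, the light chain of MHC class I, had -1.08 ± 0.41 in WT and -1.26 ± 0.41 in Adam17ex (edgeR adjusted p = 0.038 and 0.022). Its WT call was lost without WT PBS replicate 1 or 2 or WT cerulein replicate 1, 3 or 4, with edgeR adjusted p-values from 0.074 to 0.15, and its Adam17ex call also without Adam17ex cerulein replicate 2 (edgeR adjusted p = 0.10). Both B2m calls were lost with DESeq2.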

How the data were processed

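RNA from 16 pancreas samples was made into one multiplexed, poly(A)-primed library with a UMI per molecule, per the labels' protocols. The deposited table holds whole UMI counts per gene with the authors' gene positions. Tools named in the submitters' processing notes are edgeR 3.36.0, limma 3.50.0 and R 4.1.2, with GRCm38 (mm10) as build. How reads were aligned and counted, and whether strand was used, is not given in the sources used here. The counts were fitted here with edgeR 4.0.16 (limma 3.58.1, R 4.3.3). The filter filterByExpr with a minimum count of 10 kept 8236 of 24019 genes, and TMM factors scaled the libraries. A quasi-likelihood fit of all 16 libraries had group and sex as terms, since the labels give unequal sexes to the groups. The males were WT cerulein replicate 1, Adam17ex PBS replicates 1 and 3 and Adam17ex cerulein replicates 2 and 3. All other libraries were from females, so sex and genotype are partly aligned. Calls used a Benjamini-Hochberg adjusted p under 0.05 over all genes tested. Standard errors are the log2 fold change divided by the root of the F statistic, and intervals are at 95%. The procedure was tested on simulated counts.

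Depth was 455547 to 1476159 UMIs, and counting error is largest for genes with few UMIs. Named genes were the catalytic pairs, the activators, the members with the smallest p in each class, and those called between genotypes. The members and lists were chosen with earlier results of these data known. Alternatives were DESeq2 1.42.0, other scalings and filters, sex left out or females only, a replicate block, only the groups compared, thinning to 455547 UMIs, and leaving out each library or the 3 shallow ones. Of 47 gene positions, 47 equal GENCODE M21, and 22 genes overlap another gene.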

Additional observations from a re-analysis of the deposited data

Results flagged for a closer look

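In a group of 4 libraries, a library is named here where its gap to the nearest other library as a share of the group's whole range is over Dixon's 95% critical value. In 140 gene and group combinations chance alone flags about 1 in 20 groups, and 11 libraries were found. In WT with PBS these were Psma3 in replicate 3 (27.3 CPM beside 28.2 to 28.3), Psmb1 in replicate 1 (108 beside 133 to 136), Psmd1 in replicate 4 (44.1 beside 40.9 to 41.1) and Psme3 in replicate 2 (23.8 beside 18.8 to 19.6). In WT with cerulein Psma7 stood apart in replicate 2 (336 CPM beside 208 to 212). In Adam17ex with PBS they were Psmb3 in replicate 4 (97.0 beside 46.5 to 52.0), Psmd7 in replicate 1 (112 beside 75.8 to 80.4) and Psme1 in replicate 3 (66.3 beside 20.8 to 26.3). In Adam17ex with cerulein they were Psmb7 in replicate 1 (31.6 beside 16.4 to 18.0), Psmd4 in replicate 2 (147.5 beside 108 to 113) and Psmd5 in replicate 4 (25.2 beside 7.20 to 8.89).

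The cerulein response differed between the genotypes by a test of the difference (edgeR, adjusted p under 0.05) for 5 of the genes named. On the log2 scale, Adam17ex minus WT, it was 1.53 for Psmb10, -3.17 for Irf1, 1.31 for Sel1l, -1.25 for Sqstm1 and 1.54 for Syvn1. Sel1l and Syvn1 encode the ubiquitin ligase complex of the endoplasmic reticulum, and both fell less, or not by the test, in Adam17ex. The Sel1l difference was not called without any of 6 single libraries (WT PBS replicate 4, WT cerulein replicates 1 and 3, Adam17ex PBS replicate 3 and Adam17ex cerulein replicates 2 and 3), with edgeR adjusted p-values from 0.056 to 0.085. It was 0.76 in females only (edgeR adjusted p = 0.37). In the same setting the Syvn1, Irf1 and Sqstm1 differences were 1.52, -2.97 and -1.39. They were not called either, with edgeR adjusted p-values of 0.25, 0.15 and 0.062. The Syvn1 difference was not called without any of 11 single libraries (WT PBS replicates 3 and 4, each WT cerulein library, Adam17ex PBS replicates 2, 3 and 4 and Adam17ex cerulein replicates 2 and 4), with edgeR adjusted p-values from 0.051 to 0.15.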

How the results depend on the processing

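Across 28 alternatives, 56 called fold changes of named and member genes gave 1549 results, of which 1403 kept their call, 146 lost it and 0 changed direction; 30 of the 56 values never lost it. Among these 30, Psmb10 ran from -2.14 to -1.90 in WT, from 1.15 to 1.36 between the genotypes under cerulein and from 1.40 to 1.69 for the difference of responses. Psmd8 ran from 0.78 to 1.03 in WT and from 1.29 to 1.49 in Adam17ex, and Psme3 from 0.97 to 1.14 and from 1.03 to 1.23. Under other scalings the median of all genes moved by less than 0.1, and the cap median stayed between 0.28 and 0.32 in WT.

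The count lowered in Adam17ex by cerulein (4) was 1 in females only, 2 with only the groups compared and 2 without the 3 shallow Adam17ex PBS libraries, where the count raised (6) was 3. The count lower in Adam17ex under cerulein (1, Psma5) was 2 with no filter on low counts and 0 with DESeq2, females only, the replicate block or thinning. The count lower under PBS (0) was 1 without the sex term. The count lower in the difference of responses (0) was 1 with TMM without the digestive enzyme genes, no filter on low counts, a minimum count of 20, or no sex term. With only the groups compared, Psmb8 and Psmg1 had no result, and the 2 genes still lowered were Psmb10 and Psme2. The other losses and gains concern few genes. Their cause was not tested beyond the fewer libraries or UMIs some of these settings have. Leaving out each library in turn, the count higher was 7 to 9 and lower 3 to 4 for cerulein in WT, 5 to 8 and 2 to 5 in Adam17ex, 1 to 1 and 0 to 1 between genotypes under cerulein, 0 to 0 and 0 to 2 under PBS, and 1 to 3 and 0 to 1 for the difference of responses.

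Same-numbered libraries correlated from -0.224 to 0.240 over 24 pairs, with 5 pairs over 0.1. Differently numbered libraries were not correlated, so these values cannot decide whether the numbers pair the libraries. The replicate block moved no other count by over 1.5 times. Psmb9 and Psma8 are limited by depth.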
